A study of Mus musculus with 17 samples.

Results

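The comparison described here sets the hippocampus of mice given ApoE shRNA and the treatment that the labels call FC against the hippocampus of mice given control shRNA without FC. Each side is 1 RNA-seq library, so 2 of the 17 libraries of the series were compared, and 11980 of the 24652 genes in the hippocampus count table had at least 100 counts in the higher of the pair. The other 12672 genes were below that filter. The other hippocampus library, from mice given control shRNA and FC, is shown beside the others as a value, and 14 libraries of cultured neurons make up the rest of the series. All 3 hippocampus libraries came from C57BL/6 mice and none of the labels gives the age of the mice, how many animals were pooled, the shRNA sequence or the vector and cell type that carried it. What FC stands for is not said in the labels.

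The compared libraries differ in the shRNA, in FC and in the animals and library preparation, and these cannot be told apart with 1 library a group. No test between groups was possible. Each ratio is therefore given with an exact 95% binomial (Clopper-Pearson) interval on its counts, which covers counting error only, and no p-value is given. A gene is called higher or lower where the libraries were at least 1.5-fold apart in CPM, the count scaled to the library total, which is 0.58 on the log2 scale, and the higher library held 100 counts or more. In whole tissue, fewer cells of a type and less RNA per cell cannot be told apart.

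Apolipoprotein E is the main lipid carrier of the brain. It is made mostly by astrocytes, is loaded with cholesterol and phospholipid through ABC transporters, and delivers them to neurons through receptors of the LDL receptor family. Cholesterol made in the cell or taken up in this way feeds membranes and synapses, while citrate-derived acetyl-CoA serves both sterol synthesis and histone acetylation, a mark of active chromatin that is linked to memory formation in the hippocampus.

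The ApoE shRNA library held 18897784 counts, the control without FC 18166411 and the control with FC 17787408. Mitochondrially encoded genes took 1.84% of the counts in the ApoE shRNA library against 4.24% and 4.12% in these controls. The control shRNA with FC library stood apart in immune genes. For example, the MHC and antigen presentation list summed to 170 CPM in the ApoE shRNA library, 254 CPM in the control without FC and 6216 CPM in the control with FC. That library enters no ratio below unless it is named. Transcripts of Y-linked genes were present in all 3 libraries and Xist, which is transcribed from an inactive X chromosome, had 2 to 6 counts. Counts are given throughout in the order ApoE shRNA with FC, control without FC and control with FC, and a log2 ratio is ApoE shRNA with FC over control shRNA without FC.

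Apoe itself (ENSMUSG00000002985, chr7:19696109-19699188 of GRCm38, minus strand) had 26148, 30823 and 49755 counts, or 1384, 1697 and 2797 CPM. The ApoE shRNA library was the lowest of the 3 and the control with FC the highest. Its level was 81.5% of the control without FC, with an interval from 80.2% to 82.9%, which is a log2 ratio of -0.29 and does not pass 1.5-fold. Against the control with FC it was 49.5%, with an interval from 48.7% to 50.2%. The choice of control therefore moved the measured difference in the targeted gene, since the control with FC lay 0.72 above the control without FC on the log2 scale.

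Across the 11980 genes, 137 were at least 1.5-fold higher in the ApoE shRNA library, which is 1.14%, and 730 were lower, which is 6.09%. Each count of called list members below is to be read against these shares. At 2-fold these numbers were 30 higher (0.25%) and 174 lower (1.45%). The median log2 ratio was 0.01, with quartiles of -0.20 and 0.15. The counting interval excluded equality for 52.4% of genes, 3142 above and 3132 below, and held it for the other 5706. The whole interval lay past 1.5-fold for 48 of the 137 higher genes and 287 of the 730 lower ones, so for most called genes the counts alone leave a ratio under 1.5-fold possible. No hippocampus group has a repeat library. In the 7 groups of cultured neurons, each of 2 libraries, between 0.48% and 23.3% of genes lay 1.5-fold or more apart within a group, against 7.24% for the hippocampus comparison. Those values describe other cells and are not the error of the hippocampus ratios. Among the 216 genes with 100 to under 110 counts on the higher side, just inside the filter, 4.63% were higher and 14.8% lower. Among the 206 genes with 90 to 99 counts, just outside it, the shares were 4.85% and 18.9%. A gene with under 100 counts in 1 of the pair passed the filter only through the library where it was higher. That favours a call in that direction, so a count of called members that includes such genes is a description only.

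**Figure D1:**
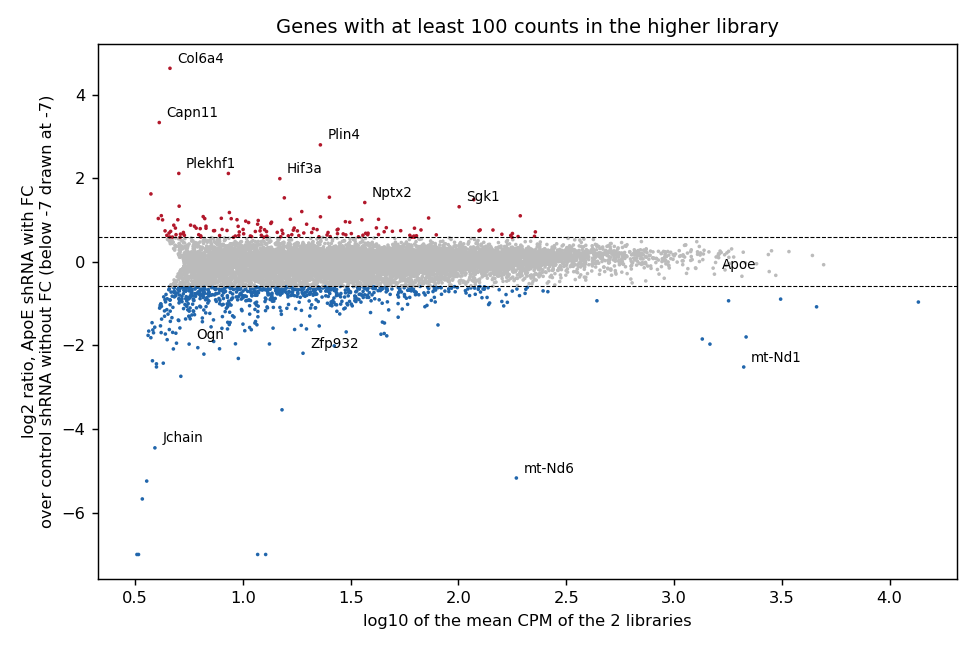
Log2 ratio of ApoE shRNA with FC over control shRNA without FC (vertical axis) against the log10 of the mean CPM of both libraries (horizontal axis), 1 point a gene past the filter. Dashed lines mark 1.5-fold. The 137 genes above them are red and the 730 below them blue, and Apoe lies between the lines. Values below -7, which belong to immunoglobulin genes with 0 to 2 counts in the ApoE shRNA library, are drawn at -7.

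The ratio moved with the base composition of the transcript. The genes called lower had a median GC content of 41.1% over their longest transcript, against 53.4% for the genes called higher and 50.04% for the others. Over 11972 genes with a transcript sequence, Spearman's rho between the log2 ratio and GC content was 0.46. For the control with FC over the control without FC it was -0.12. The genes share the same libraries and are not independent, so these are descriptions. When the genes were put in 10 groups of equal size by GC content, the lowest group (1198 genes, 31.0% to 41.4% GC) had a median of -0.41 and held 379 of the 730 lower genes, 31.6% of its own members. The highest group had a median of 0.09 and 1.59% of its members were lower. For this reason a GC-centred value, the log2 ratio minus the median of the gene's GC group, is given where it ends a call. It was added after the data were seen. With it, 144 genes were higher (1.2%) and 444 lower (3.71%), and 103 of the 137 and 388 of the 730 kept their call. Whether the GC pattern arose in the tissue or in the library preparation was not tested.

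**Figure D2:**
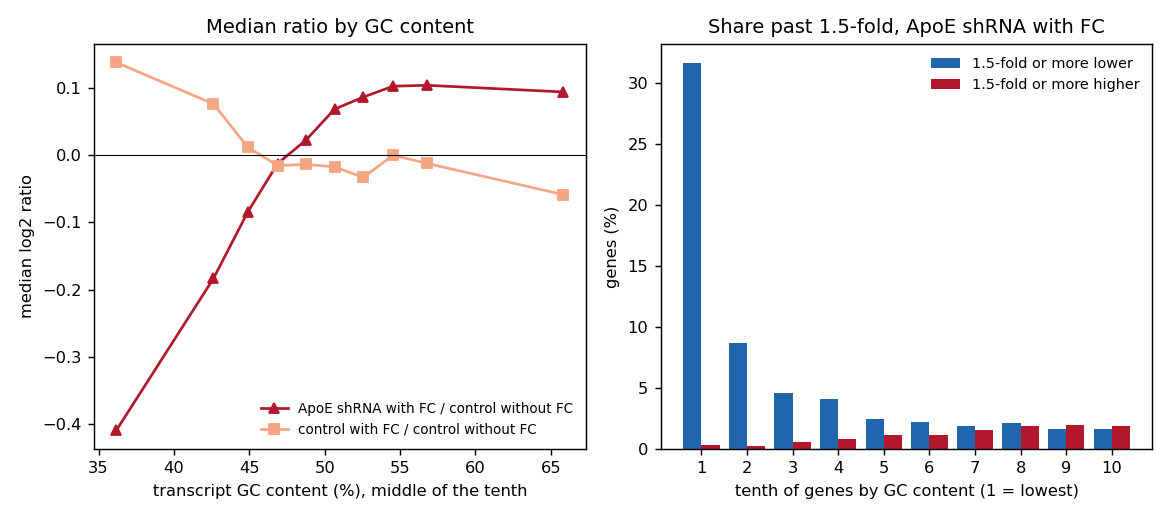
Left, median log2 ratio (vertical axis) in 10 equal groups of genes by transcript GC content (horizontal axis, %, middle of the group), for ApoE shRNA with FC and for control shRNA with FC, each over control shRNA without FC. Right, the percentage of genes in each group at least 1.5-fold lower (blue) or higher (red) with ApoE shRNA. The lowest GC group has a median of -0.41 and 31.6% lower genes, and the highest a median of 0.09 and 1.59%.

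The genes that respond to glucocorticoid hormone gave the highest median of all lists, though the lowest medians, such as that of the mitochondrial list, lay farther from 0. Glucocorticoids are released from the adrenal gland in stress and with the daily rhythm, and act through a nuclear receptor that binds DNA as a dimer and is abundant in hippocampal neurons. Of 15 listed members past the filter, 7 were higher and 1 lower, against 1.14% and 6.09% of all genes, and the list's median was 0.55 against 0.01 for all genes. The counting interval lay above equality for 14 of the 15, against 3142 of all 11980 genes.

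Promoters of 3 of these genes and of Ciart, a clock gene described below, are shown because they hold the letters that the glucocorticoid receptor or the clock proteins are known to prefer. The motifs shown are ACANNNTGT, the core spaced half-sites of the glucocorticoid receptor, and CACGTG, the E-box of the CLOCK and BMAL1 dimer. A further motif, TGACGTCA, was also searched. In annotated promoters of the higher glucocorticoid, clock and immediate early genes it matched 0 of 16, 0 of 4 and 0 of 2. The last 2 are promoters of Fosb and Nr4a1. Among all members of these lists past the filter, it matched 1 of 24, 1 of 22 and 2 of 21 promoters. These shares are 4.17%, 4.55% and 9.52%, against 1.79% of all promoters. Each motif reads the same on both strands. Capitals mark a match. Every sequence runs 5′ to 3′ on the gene's strand from 250 bases before to 50 bases after an annotated start (RefSeq, GRCm38.p6).
Sgk1, chr10:21993640-21993939, plus strand: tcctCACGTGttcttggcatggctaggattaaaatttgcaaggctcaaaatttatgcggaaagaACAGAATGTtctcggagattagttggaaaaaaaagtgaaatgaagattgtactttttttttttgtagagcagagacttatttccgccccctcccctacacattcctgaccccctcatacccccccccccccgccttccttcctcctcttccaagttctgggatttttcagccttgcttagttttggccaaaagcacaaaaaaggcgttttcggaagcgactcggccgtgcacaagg
Map3k6, chr4:133240568-133240867, plus strand: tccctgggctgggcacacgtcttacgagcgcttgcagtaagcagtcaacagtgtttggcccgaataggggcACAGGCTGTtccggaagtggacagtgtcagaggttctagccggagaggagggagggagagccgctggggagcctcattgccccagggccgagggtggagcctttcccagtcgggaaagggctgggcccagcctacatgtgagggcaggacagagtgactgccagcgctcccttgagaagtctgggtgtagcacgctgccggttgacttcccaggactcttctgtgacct
Per1, chr11:69098699-69098998, plus strand: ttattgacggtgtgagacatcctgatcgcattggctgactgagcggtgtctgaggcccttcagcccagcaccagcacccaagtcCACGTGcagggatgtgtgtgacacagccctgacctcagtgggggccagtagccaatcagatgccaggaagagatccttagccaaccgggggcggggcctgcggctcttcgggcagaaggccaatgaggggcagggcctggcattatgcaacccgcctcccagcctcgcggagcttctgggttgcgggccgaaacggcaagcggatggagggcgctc
Ciart, chr3:95882179-95882478, minus strand: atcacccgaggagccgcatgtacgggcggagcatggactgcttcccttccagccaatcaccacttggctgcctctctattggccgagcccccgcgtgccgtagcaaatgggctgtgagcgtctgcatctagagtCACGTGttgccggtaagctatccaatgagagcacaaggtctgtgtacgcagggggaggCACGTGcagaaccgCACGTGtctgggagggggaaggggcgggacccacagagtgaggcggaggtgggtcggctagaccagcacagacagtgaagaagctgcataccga

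The receptor's letters begin 186 bases before the printed Sgk1 start and 179 bases before the Map3k6 start. Another annotated Sgk1 start, whose promoter is not printed, has them 127 bases before it, and further Sgk1 starts have no match to them. These letters occur in 6.85% of 32851 annotated promoters of this length, and the E-box in 7.15%. Among 16 annotated promoters of the 7 higher glucocorticoid genes, 3 held ACANNNTGT, 18.8%, of which 2 are alternative starts of Sgk1. Among promoters of all members past the filter, these letters were in 4 of 24 for the glucocorticoid list, or 16.7%. They were in 3 of 21 for the immediate early list, or 14.3%, and in 0 of 22 for the clock list. The E-box was in 2 of the 16 promoters of higher glucocorticoid genes, or 12.5%, and in 2 of 4 of higher clock genes. Among members past the filter it was in 6 of 22 for the clock list, or 27.3%. It was in 3 of 24 for the glucocorticoid list and 3 of 21 for the immediate early list. Only promoters with a match are printed. Of these, Ciart holds 3 E-boxes, at 116, 58 and 44 bases before its start, and Sgk1 holds 1, at 246 bases, and Per1 holds 1, at 166 bases. A match in letters is a description of the sequence and not a binding site.

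Plin4 (chr17:56100591-56109803), which codes for a coat protein of lipid droplets, had 756, 104 and 1074 counts. It was 6.96-fold higher than in the control without FC, with an interval from 5.69 to 8.66. Sgk1, a kinase that glucocorticoids induce and that acts on ion channels, had 2717, 1047 and 3626 counts and a log2 ratio of 1.32 (1.22 to 1.42). In both genes the libraries with FC were the high ones and the control without FC was the low one. Tsc22d3, which codes for the anti-inflammatory protein GILZ, had 1852, 860 and 2157 counts and a log2 ratio of 1.05 (0.93 to 1.17). Arrdc2, an arrestin-domain gene, had 420, 199 and 400 counts and a ratio of 1.02 (0.77 to 1.27). Cdkn1a, the cell cycle inhibitor p21, had 296, 143 and 781 counts and a ratio of 0.99 (0.70 to 1.29). The ApoE shRNA library thus lay well above the control without FC in these 3, and the control with FC lay near it in Arrdc2 and higher in Tsc22d3 and Cdkn1a. Map3k6, a stress-activated kinase, had 162, 89 and 192 counts and a ratio of 0.80 (0.43 to 1.20). It passed the filter only through the ApoE shRNA library. Pdk4, which restrains pyruvate dehydrogenase, went the other way with 151, 237 and 271 counts and a ratio of -0.71 (-1.01 to -0.41). Cdkn1a, Map3k6 and Pdk4 are named because they complete the called members, after their values were seen.

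The circadian clock is a feedback loop in which CLOCK and BMAL1 switch on the Per and Cry genes, whose proteins then repress them, and its phase depends on the hour of tissue collection, which the labels do not give. Of 18 clock genes, 3 were higher, against 1.14% of all genes, and 1 was lower, near the 6.09% of all genes. The median was 0.25. Per1, a repressor of the loop that glucocorticoids also induce, had 3436, 1948 and 3012 counts and a ratio of 0.76 (0.68 to 0.84). Dbp, an output transcription factor of the clock, had 1063, 620 and 800 counts and a ratio of 0.72 (0.58 to 0.87). Ciart, a repressor of the CLOCK and BMAL1 dimer, had 338, 199 and 296 counts and a ratio of 0.71 (0.45 to 0.97). In these 3 genes the ApoE shRNA library was the highest and the control without FC the lowest. Rorb, a nuclear receptor that also marks cortical neurons, had 243, 414 and 476 counts and a ratio of -0.82 (-1.06 to -0.59).

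Immediate early genes are switched on within minutes of neuronal firing, and late activity genes follow within hours. Of 23 immediate early genes, 4 were higher and 0 lower, against 1.14% and 6.09% of all genes, with a median of 0.16. Fosb, a partner of Jun proteins, had 1002, 548 and 794 counts and a ratio of 0.81 (0.66 to 0.97). Among the zinc finger factors, Egr1 had 5342, 3124 and 5877 counts, a ratio of 0.72 (0.65 to 0.78), and Egr3 had 4140, 2486 and 4522, a ratio of 0.68 (0.61 to 0.75). The nuclear receptor Nr4a1 had 3680, 2238 and 2990 counts and a ratio of 0.66 (0.58 to 0.74), which GC-centring brought to 0.56, under 1.5-fold. The control without FC was the lowest library for all 4. The list did not move as a whole, since the interval lay above equality for 13 members and below it for 4.

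Of 16 late activity genes, 4 were higher and 0 lower, against 1.14% and 6.09% of all genes, with a median of 0.39. The interval lay below equality for none of them. Nptx2, a secreted pentraxin that clusters AMPA receptors, had 1011, 363 and 1624 counts and a ratio of 1.42 (1.25 to 1.60). Pcsk1, a protease that cuts peptide precursors, had 875, 536 and 1421 counts and a ratio of 0.65 (0.49 to 0.81). Inhba, an activin subunit, had 211, 132 and 594 counts and a ratio of 0.62 (0.30 to 0.94). Scg2, a granule protein of peptide secretion, had 4310, 2723 and 4005 counts and a ratio of 0.61 (0.54 to 0.68). The control without FC was again the lowest in each, and the control with FC the highest in all but Scg2. Scaling to totals without mitochondrial genes and the 20 highest genes brought Inhba and Scg2 to 0.58 and 0.57, under 1.5-fold. With GC-centring 6 members of the list were higher.

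**Figure D3:**
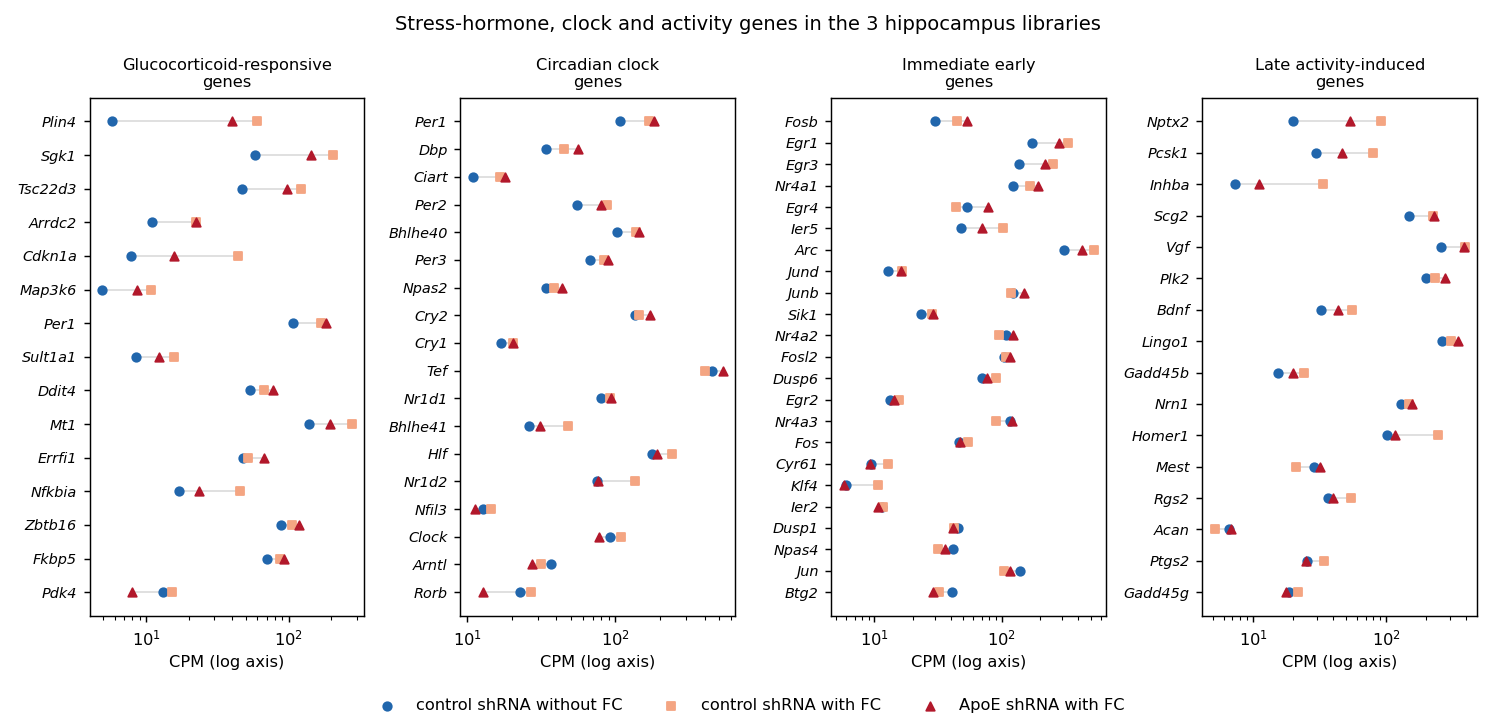
CPM (log axis) of every member past the filter of the glucocorticoid, clock, immediate early and late activity lists in the 3 hippocampus libraries, 1 symbol a library, ordered by the ratio of ApoE shRNA with FC over control shRNA without FC. At the top of each panel the triangle (ApoE shRNA with FC) and the square (control with FC) lie to the right of the circle (control without FC), and for Pdk4 and Rorb at the bottom the triangle lies to the left of it.

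The 12 highest ratios among named genes held other genes as well. Col6a4 (chr9:105989454-106096783), a collagen VI chain, had 167, 6 and 5 counts, 24.8-fold higher with an interval from 12.04 to 73.95. Capn11 (chr17:45630204-45659325), a calpain protease, had 141, 13 and 11 counts, 10.1-fold higher with an interval from 5.90 to 20.1. In both, only the ApoE shRNA library was high, and the controls lay within a few counts of each other. The remaining genes did not share that pattern. Hif3a, a member of the hypoxia-inducible factor family, had 448, 108 and 368 counts and a log2 ratio of 1.99 (1.69 to 2.31). Plekhf1, an adaptor of endosomes and lysosomes, had 155, 34 and 141 counts and a ratio of 2.12 (1.59 to 2.71). Arl4d, a small GTPase, had 437, 145 and 486 counts and a ratio of 1.53 (1.26 to 1.82). Here both libraries with FC were high. Trib1, a pseudokinase, and Dclre1b, a telomere nuclease, had the same order of libraries as Arl4d, with ratios of 1.20 and 1.10. Bace2, a homolog of beta-secretase, had 107, 33 and 63 counts and a ratio of 1.63 (1.07 to 2.25).

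Among apolipoproteins and lipoprotein remodelling genes, 7 passed the filter, 0 were higher and 2 were lower, with a median of -0.15. Lpl, which releases fatty acids from lipoproteins, had 312, 596 and 150 counts and a ratio of -0.99 (-1.19 to -0.79). Pltp, which transfers phospholipid between particles, had 549, 843 and 854 counts and a ratio of -0.68 (-0.83 to -0.52). For Lpl the control with FC was lower still, whereas for Pltp the controls lay together. Clu, the other abundant astrocytic apolipoprotein, had 17053, 18144 and 27861 counts and a ratio of -0.15. Of 15 ApoE receptors, 1 was higher. This was Sorcs3, a sortilin family receptor, with 1380, 881 and 1021 counts and a ratio of 0.59 (0.47 to 0.71), and GC-centring brought it to 0.52, under 1.5-fold.

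Of 19 genes of cholesterol synthesis, 0 were higher and 1 was lower, close to the 6.09% of all genes, and the median was -0.12. The lower gene was Idi1, the isopentenyl diphosphate isomerase of the mevalonate pathway, with 168, 386 and 255 counts and a ratio of -1.25 (-1.53 to -0.99). Its level was the lowest in the ApoE shRNA library and the highest in the control without FC. Sqle, which makes squalene epoxide, had 1155, 1206 and 736 counts and a ratio of -0.12. The ratios of the whole list ran from -1.25 to 0.27. None of 11 sterol sensing and uptake genes was called, with ratios from -0.28 for Stard4 to 0.18, and the same held for 12 LXR targets and export genes, from -0.44 for Cyp7b1 to 0.28. Srebf1, the master factor of fatty acid synthesis, had a ratio of -0.21, and Soat1, which esterifies cholesterol, of -0.33.

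Among 22 genes of acetyl-CoA and fatty acid synthesis, 0 were higher and 1 was lower. Elovl7, a fatty acid elongase, had 135, 198 and 232 counts and a ratio of -0.61 (-0.94 to -0.29), which TMM scaling (-0.58), size factors (-0.56) and GC-centring (-0.42) each brought under 1.5-fold. None of 15 histone acetyltransferases was called, with a median of 0.04. Their ratios ran from -0.46 for Kat2b, with 303, 402 and 670 counts, to 0.44 for Kat5, the catalytic subunit of the TIP60 complex, with 858, 609 and 640 counts. The coactivators Crebbp and Ep300 had ratios of 0.04 and -0.03. Of 14 deacetylases, 1 was lower, or 7.14%, near the 6.09% of all genes. Sirt1, an NAD-dependent deacetylase, had 214, 346 and 433 counts and a ratio of -0.75 (-1.0 to -0.50). Of the 3 libraries, ApoE shRNA was the lowest for Sirt1 and Kat2b and the highest for Kat5.

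The presynaptic list had 1 higher and 1 lower of 25, close to the 7.24% of all genes called in either direction, with a median of 0.19. Cplx3, a complexin that clamps vesicle fusion, had 288, 148 and 303 counts and a ratio of 0.90 (0.61 to 1.20). Syt4, a vesicle protein of dense core granules, had 1029, 1639 and 2185 counts and a ratio of -0.73 (-0.84 to -0.62), which GC-centring brought to -0.32. None of 21 postsynaptic genes was called, and the median was 0.16. The interval lay above equality for 17 of them, against 3142 of all 11980 genes. The interval narrows as counts grow, so an abundant gene can exclude equality at a small ratio. Nrgn, a calmodulin-binding protein of dendrites, had 24424, 17709 and 17823 counts and a ratio of 0.41 (0.38 to 0.43), with the controls close together. Camk2b, a subunit of CaM kinase II, had a ratio of 0.37.

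Of 24 glutamate receptor genes, 1 was higher and 1 lower, close to the 7.24% of all genes called in either direction. Grm4, a presynaptic metabotropic receptor, had 526, 296 and 542 counts and a ratio of 0.77 (0.56 to 0.98). Grm3, a metabotropic receptor found on astrocytes and neurons, had 593, 887 and 708 counts and a ratio of -0.64 (-0.79 to -0.49). Of 14 GABA receptor genes, 0 were higher and 2 lower. Gabrg1, a subunit enriched in glia, had 191, 397 and 335 counts and a ratio of -1.11 (-1.37 to -0.86). Gabra2 had 1042, 1805 and 1280 counts and a ratio of -0.85 (-0.96 to -0.74), which GC-centring brought to -0.44. Both lie in a receptor gene cluster of chromosome 5, and their transcripts have 35.3% and 38.4% GC.

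Among 26 sodium and calcium channel genes, 1 was higher and 1 lower, close to the 7.24% of all genes called in either direction. Scn4b, a beta subunit that shapes resurgent sodium current, was the higher gene, with 709, 233 and 511 counts and a ratio of 1.55 (1.33 to 1.77). All 3 libraries were separate, the ApoE shRNA library being the highest. Cacna2d1, an auxiliary calcium channel subunit, had 2559, 3995 and 3390 counts and a ratio of -0.70, brought to -0.29 by GC-centring. Of 26 potassium channel genes, 1 was lower, or 3.85%, under the 6.09% of all genes. Kcnj3, which codes for GIRK1, had 977, 1571 and 1759 counts and a ratio of -0.74 (-0.86 to -0.63).

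Neuropeptide precursors had 4 higher and 1 lower of 15, against 1.14% and 6.09% of all genes, with a median of 0.25. Adcyap1 and Nts, 2 of the higher genes, passed the filter only through the ApoE shRNA library. That favours a higher call, so the number of higher genes is a description only. Adcyap1, the precursor of PACAP, had 145, 77 and 381 counts and a ratio of 0.85 (0.45 to 1.27). Penk, the enkephalin precursor, had 284, 163 and 292 counts and a ratio of 0.74 (0.46 to 1.03). Nts, the neurotensin precursor, had 113, 69 and 54 counts and a ratio of 0.65 (0.21 to 1.11), and Scg2 is described above. Adcyap1 was lowest in the control without FC and highest in the control with FC. Penk was low in the control without FC, while Nts was low in both controls. Grp, the gastrin-releasing peptide precursor, had 374, 551 and 112 counts and a ratio of -0.62 (-0.81 to -0.42), brought to -0.58 and -0.57 by TMM and size factors. Of 20 neurofilament and axon growth genes, 1 was lower, or 5%, near the 6.09% of all genes. It was Dcx, with 338, 635 and 572 counts and a ratio of -0.97 (-1.16 to -0.77). GC-centring brought Dcx to -0.56. Dcx codes for doublecortin, a microtubule protein of newborn neurons.

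In the integrated stress response list, 2 genes were higher and 1 lower of 17, with a median of 0.30. Cebpb, a transcription factor that stress induces, had 107, 51 and 169 counts and a ratio of 1.00 (0.52 to 1.52). Mthfd2, a mitochondrial folate enzyme, had 220, 136 and 217 counts and a ratio of 0.63 (0.32 to 0.96). Slc7a11, the cystine transporter of astrocytes, had 451, 1178 and 1866 counts and a ratio of -1.44 (-1.60 to -1.28). Of these 3 genes, only Slc7a11 lay below both controls with ApoE shRNA. Of 19 heat shock and oxidative stress genes, the small chaperone Hspb1 was higher, with 173, 99 and 337 counts and a ratio of 0.75 (0.38 to 1.12). No gene was called among 18 chaperones and stress genes of the endoplasmic reticulum, 23 glycolysis and hypoxia genes, 21 lysosome genes or 32 cytosolic ribosomal protein genes. Their medians were 0.09, 0.19, 0.03 and -0.01. The largest among glycolysis and hypoxia genes was the glucose transporter Slc2a1, with 1643, 1118 and 2259 counts and a ratio of 0.50 (0.39 to 0.61).

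The mitochondrial genome codes for subunits of the respiratory chain and for its own ribosomal RNAs, which are cut from long transcripts of both strands. All 12 mitochondrially encoded genes past the filter were lower, with a median of -1.45 against 0.01 for all genes. With GC-centring 8 of the 12 were lower and the median was -1.04. The summed level of the list was 18423 CPM with ApoE shRNA, 42427 CPM in the control without FC and 41205 CPM in the control with FC, so the controls lay together. mt-Nd6, the protein gene on the opposite strand from the others, had 189, 6560 and 7079 counts. It was 36.0-fold lower with an interval from 31.2 to 41.9. The complex I gene mt-Nd1 had 11852, 65141 and 66966 counts and a log2 ratio of -2.52, and mt-Nd2 had 11129, 38452 and 47678 and a ratio of -1.85. The ribosomal RNAs mt-Rnr1 and mt-Rnr2 had ratios of -1.97 and -1.80. In contrast, mt-Co1, the most abundant, had 174574, 326753 and 290048 counts and a ratio of -0.96, brought to -0.55 by GC-centring. Thus the genes did not move by 1 common factor. mt-Atp6, mt-Co2 and mt-Co3 had 25 to 477 counts in any library, far under mt-Co1. Mitochondrial genes have near-identical copies in the nuclear genome, so reads shared with a copy could be split or dropped and these 3 are uncertain. The strand setting of the counting is not given in the sources used here, which bears on mt-Nd6.

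**Figure D4:**
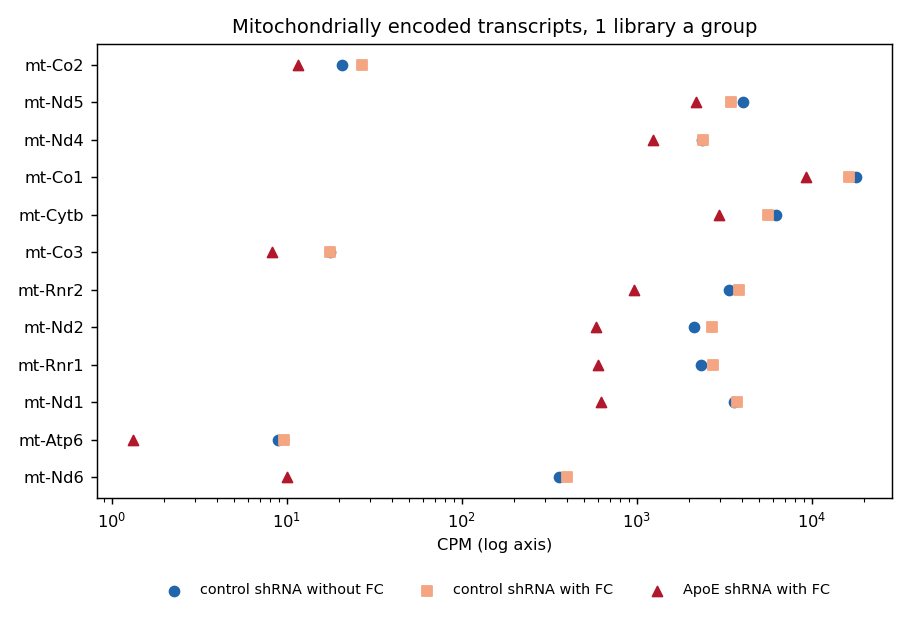
CPM (log axis) of the 12 mitochondrially encoded genes past the filter in the 3 hippocampus libraries, 1 symbol a library, ordered by ratio. The triangle, ApoE shRNA with FC, lies to the left of both controls in all 12 rows, and farthest to the left in mt-Nd6.

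The nuclear genes of the respiratory chain did not follow. Of 32 subunits 0 were called and the median was 0.17. The interval lay above equality for 21 and below for 1, against 3142 and 3132 of all 11980 genes. Ndufb2, a complex I subunit, had 288, 385 and 378 counts and a ratio of -0.48 (-0.70 to -0.25). Cox5a, a complex IV subunit, had 1046, 830 and 842 counts and a ratio of 0.28 (0.14 to 0.41).

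Zinc finger genes with a Zfp symbol held many of the lower calls, a pattern chosen after the values were seen. Of 282 past the filter, 0 were higher and 50 lower, 17.7% against 6.09% of all genes. Some of the lower ones, such as Zfp943, Zfp994, Zfp946 and Zfp729b, passed the filter only through the control without FC. That favours a lower call, so the number of lower genes is a description only. With GC-centring 29 were lower, 10.3% against 3.71%, and the family's median was -0.09 before and -0.03 after it. Many code for factors that silence repeated elements. Zfp932 had 129, 566 and 531 counts and a ratio of -2.19 (-2.48 to -1.91). Zfp943 had 60, 288 and 436 counts and a ratio of -2.31 (-2.75 to -1.91). Zfp994, Zfp946 and Zfp729b had ratios of -2.37, -2.08 and -2.08. The ApoE shRNA library was the lowest of the 3 in each of them, their transcripts had 36.9% to 38.1% GC, and they have close paralogs, which makes their counts uncertain.

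In the imprinted region of chromosome 7, a pair of genes moved in opposite directions, also chosen after their values were seen. Ube3a, a ubiquitin ligase expressed from the maternal allele in neurons, had 382, 1220 and 1551 counts and a ratio of -1.73 (-1.90 to -1.57). Ndn, the paternally expressed gene for necdin, had 4989, 2234 and 1535 counts and a ratio of 1.10 (1.03 to 1.17). Snhg14, the noncoding RNA that overlaps Ube3a on the other strand, had 1578, 1853 and 1683 counts and a ratio of -0.29. The controls lay on the same side of the ApoE shRNA library in both genes. Without the strand setting, reads of Ube3a and Snhg14 cannot be told apart where they overlap.

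Markers of the labelled tissue were present. The excitatory neuron list summed to 8384, 7667 and 6368 CPM and the inhibitory list to 1615, 1604 and 1376 CPM. Of 12 excitatory markers, 1 was higher with a median of 0.14. It was Slc17a6, the vesicular glutamate transporter that is typical of thalamus and brain stem, with 509, 282 and 726 counts and a ratio of 0.79 (0.58 to 1.01). None of 14 inhibitory markers was called, and Pvalb and Calb2, which mark separate interneuron types, had ratios of 0.54 and -0.46. Among field markers, 1 of 8 for CA1 was higher (Wfs1, 0.63, and 0.53 with GC-centring) and 2 of 9 for CA2 and CA3. These were Cacng5, with 237, 113 and 161 counts and a ratio of 1.01 (0.68 to 1.35), and Cdh24, with a ratio of 0.63 that GC-centring brought to 0.53. For the dentate gyrus, 2 of 12 were higher and 1 lower. Lct had 899, 430 and 936 counts and a ratio of 1.01 (0.84 to 1.18), Dsp had a ratio of 0.65, and Calb1, a calcium buffer of mature granule cells, had 1628, 2451 and 1757 counts and a ratio of -0.65. GC-centring brought Dsp to 0.57 and Calb1 to -0.24.

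Markers of immature granule neurons had 0 higher and 2 lower of 7, with a median of -0.44. The lower genes were Dcx and Sox11, a transcription factor of young neurons with 348, 517 and 483 counts and a ratio of -0.63 (-0.83 to -0.43), brought to -0.58 by size factors. Regions next to the hippocampus gave mixed values. Of 9 thalamic and habenular markers, 1 was higher (Slc17a6) and 1 lower (Tcf7l2, 47, 112 and 114 counts, ratio -1.30). Striatal markers had 2 of 8 higher, Penk and Lrrc10b, with ratios of 0.74 and 0.73. Cortical markers had 2 of 10 higher, Lamp5 and Ctgf, with ratios of 0.82 and 0.62, and 1 lower, Rorb. Scaling to totals without mitochondrial genes and the 20 highest genes brought Ctgf to 0.58, under 1.5-fold. The 2 hypothalamic genes past the filter, Baiap3 and Hap1, had ratios of 0.24 and -0.17. The summed level of thalamic markers was 428, 381 and 483 CPM, of striatal markers 287, 234 and 255 CPM, and of cortical markers 653, 647 and 677 CPM. The part of dissection in any result was not tested.

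Lists of glial and vascular markers differed in how far they lay from 0. The astrocyte list, which includes Apoe, had 4 lower and 1 higher of 16, against 6.09% and 1.14% of all genes. Its median was -0.31 and its summed levels were 8994, 10243 and 14561 CPM. Sox9, a transcription factor of astrocytes, had 543, 963 and 962 counts and a ratio of -0.88 (-1.04 to -0.73). Gja1, the gap junction protein connexin 43, had 2637, 4438 and 4267 counts and a ratio of -0.81 (-0.88 to -0.74). Aqp4, the water channel of astrocyte endfeet, had 1727, 3009 and 4571 counts and a ratio of -0.86, brought to -0.45 by GC-centring. Vim, an intermediate filament protein, had 660, 1044 and 4635 counts and a ratio of -0.72. The list did not move as a whole, since Gjb6, connexin 30, had 1417, 905 and 2104 counts and a ratio of 0.59. GC-centring and the totals without mitochondrial and the 20 highest genes brought Gjb6 to 0.57 and 0.55. Gjb6 is named as the 1 called member outside the naming rule. Gfap, the astrocyte filament protein, had 8629, 10347 and 37654 counts and a ratio of -0.32, and the glutamate transporter Slc1a2 also had -0.32. Glul and Aldoc, further astrocyte markers, had ratios of 0.15 and 0.07. Across the list the counting interval lay below equality for 10 members, Apoe among them, and above it for 5. The part of these markers' levels in the ratio of Apoe was not tested.

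Microglia markers had 0 higher and 3 lower of 12, against 1.14% and 6.09% of all genes. Their median was -0.43 and their sums were 382, 512 and 2460 CPM. Cx3cr1, the fractalkine receptor, had 399, 773 and 1219 counts and a ratio of -1.01 (-1.19 to -0.83). P2ry12, a purinergic receptor of resting microglia, had 315, 543 and 683 counts and a ratio of -0.84, brought to -0.43 by GC-centring. Tyrobp, a signalling adaptor of TREM2, had 114, 173 and 750 counts and a ratio of -0.66 (-1.01 to -0.31). For each gene the ApoE shRNA library was the lowest of the 3. Of 6 MHC genes past the filter, 3 were lower, against 6.09% of all genes, and the median of the 6 was -0.63. Tap1, 1 of the lower genes, passed the filter only through the control without FC, which favours a lower call. The class I chain H2-D1 had 671, 1106 and 20758 counts and a ratio of -0.78 (-0.92 to -0.64), H2-K1 had -0.74, and the peptide transporter gene Tap1 had -0.88. The paralog H2-Q6 had 23, 122 and 2220 counts and a ratio of -2.44, and reads of these near-identical genes may be split between them.

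Of 8 complement genes, 2 were lower, against 6.09% of all genes. C4b, a component of the classical pathway, had 1812, 2744 and 21491 counts and a ratio of -0.66 (-0.74 to -0.57). Of 8 interferon-stimulated genes 2 were lower, also against 6.09%, Gbp3 at -0.91 and Ifit2 at -0.60. Gbp3 passed the filter only through the control without FC. That favours a lower call, so this number is a description only. TMM, size factors and GC-centring brought Ifit2 to -0.57, -0.55 and -0.42. Of 9 inflammation genes 3 were lower. Cxcl12, a chemokine of vessels and neurons, had 907, 1505 and 1344 counts and a ratio of -0.79, Osmr, a cytokine receptor, had -0.76, and Vcam1, an adhesion molecule, had -0.61. Vcam1 fell under 1.5-fold with TMM (-0.58), size factors (-0.57) and GC-centring (-0.20).

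Endothelial markers had 0 higher and 4 lower of 11, against 1.14% and 6.09% of all genes. Their median was -0.34 and their sums were 570, 695 and 843 CPM. Cldn5, the tight junction protein of the blood-brain barrier, had 315, 719 and 476 counts and a ratio of -1.25 (-1.44 to -1.05), and its transcript has 60.5% GC. Flt1, a VEGF receptor, had 801, 1388 and 1738 counts and a ratio of -0.85 (-0.98 to -0.72). Itm2a and Slco1a4 had -0.93 each, brought to -0.74 and -0.52 by GC-centring. The mural cell list had 1 of 6 lower, Rgs5, at -0.70 and -0.29 with GC-centring, with sums of 179, 251 and 239 CPM. The fibroblast and meninges list had 2 of 10 lower, with sums of 201, 242 and 312 CPM. Both lower genes passed the filter only through the control without FC. That favours a lower call, so their number is a description only. Ogn, a proteoglycan of the meninges, had 43, 163 and 275 counts and a ratio of -1.97 (-2.50 to -1.49), and Slc6a13, a GABA transporter of the meninges, had -1.0. Of 17 collagen genes 3 were lower and 0 higher, against 6.09% and 1.14% of all genes. The lower ones were Col4a5 at -1.0, Col25a1 at -0.67 and Col5a2 at -0.66. Of these, Col4a5 passed the filter only through the control without FC. Col6a4, above, was not in that list.

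Myelin markers had 0 higher and 4 lower of 14, a median of -0.11 and sums of 3991, 3919 and 5430 CPM, so the sum did not follow the called genes. Aspa, which breaks down N-acetylaspartate, had 99, 220 and 305 counts and a ratio of -1.20 (-1.57 to -0.86). Opalin, a myelin membrane protein, had -0.81, Ugt8a, which makes galactocerebroside, had -0.84, and Ermn, a cytoskeletal protein of myelin, had -0.72. GC-centring brought Ugt8a to -0.43 and Ermn to -0.31. None of 8 markers of oligodendrocyte precursors was called, and Sox10 and C1ql1 had -0.41 and -0.45. Of 3 choroid plexus genes past the filter, Prlr was lower at -0.60, and it passed only through the control without FC. TMM, size factors and GC-centring brought Prlr to -0.57, -0.56 and -0.19. The 1 ependymal marker past the filter, Foxj1, had a ratio of -0.07.

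Among blood cell lists, the erythrocyte and lymphocyte lists held lower genes. Hba-a1, an alpha globin, had 184, 539 and 309 counts and a ratio of -1.60 (-1.86 to -1.36). Hbb-bs, a beta globin, had 219, 610 and 389 counts and a ratio of -1.53 (-1.76 to -1.31). The erythrocyte list summed to 24.9, 72.9 and 44.8 CPM, and the globins have close paralogs. Of 4 lymphocyte and plasma cell markers past the filter, 3 were lower, against 6.09% of all genes. These 3, Igkc, Jchain and Ptprc, passed the filter only through the control without FC. That favours a lower call, so their number is a description only. The list summed to 14.4, 55.2 and 596 CPM. Ptprc, the leukocyte antigen CD45, had 52, 111 and 939 counts and a ratio of -1.14 (-1.66 to -0.66). Below the filter, Cd3e, Cd3d, Cd8a, Cd2, Mzb1 and Nkg7 were at 0 with ApoE shRNA and had 1 to 18 counts in the control without FC. They are named for that 0, and other members below the filter did have counts in the ApoE shRNA library. The 10 T cell receptor segments listed summed to 24, 21 and 176 counts, so the ApoE shRNA library was not the lower there. No neutrophil marker passed the filter, with sums of 1.27, 1.16 and 26.0 CPM.

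Immunoglobulin genes other than Ighm differed by large folds, again chosen after the values were seen. The 53 listed segments and chains together had 213, 2291 and 18734 counts, 11.2-fold lower with an interval from 9.72 to 12.9. Of these, Ighm alone had 198, 238 and 3750 counts, a log2 ratio of -0.32, so it made up most of the counts in the ApoE shRNA library. The other 52 had 15, 2053 and 14984 counts, 138-fold lower with an interval from 86.1 to 255. Igkc, the kappa constant chain, had 2, 461 and 3722 counts, a ratio 192-fold lower with an interval from 66.0 to 1986. Jchain, which joins secreted antibodies, had 6, 136 and 1201 counts, 21.8-fold lower with an interval from 10.6 to 65.4. Ighg2b had 0, 425 and 1777 counts, at least 147-fold lower when the 0 is set to the limit of 3 counts in that library. The segments resemble one another in sequence, so single segments are uncertain. The control without FC therefore held immunoglobulin transcripts other than Ighm that the ApoE shRNA library almost lacked, while the control with FC held more than either.

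**Figure D5:**
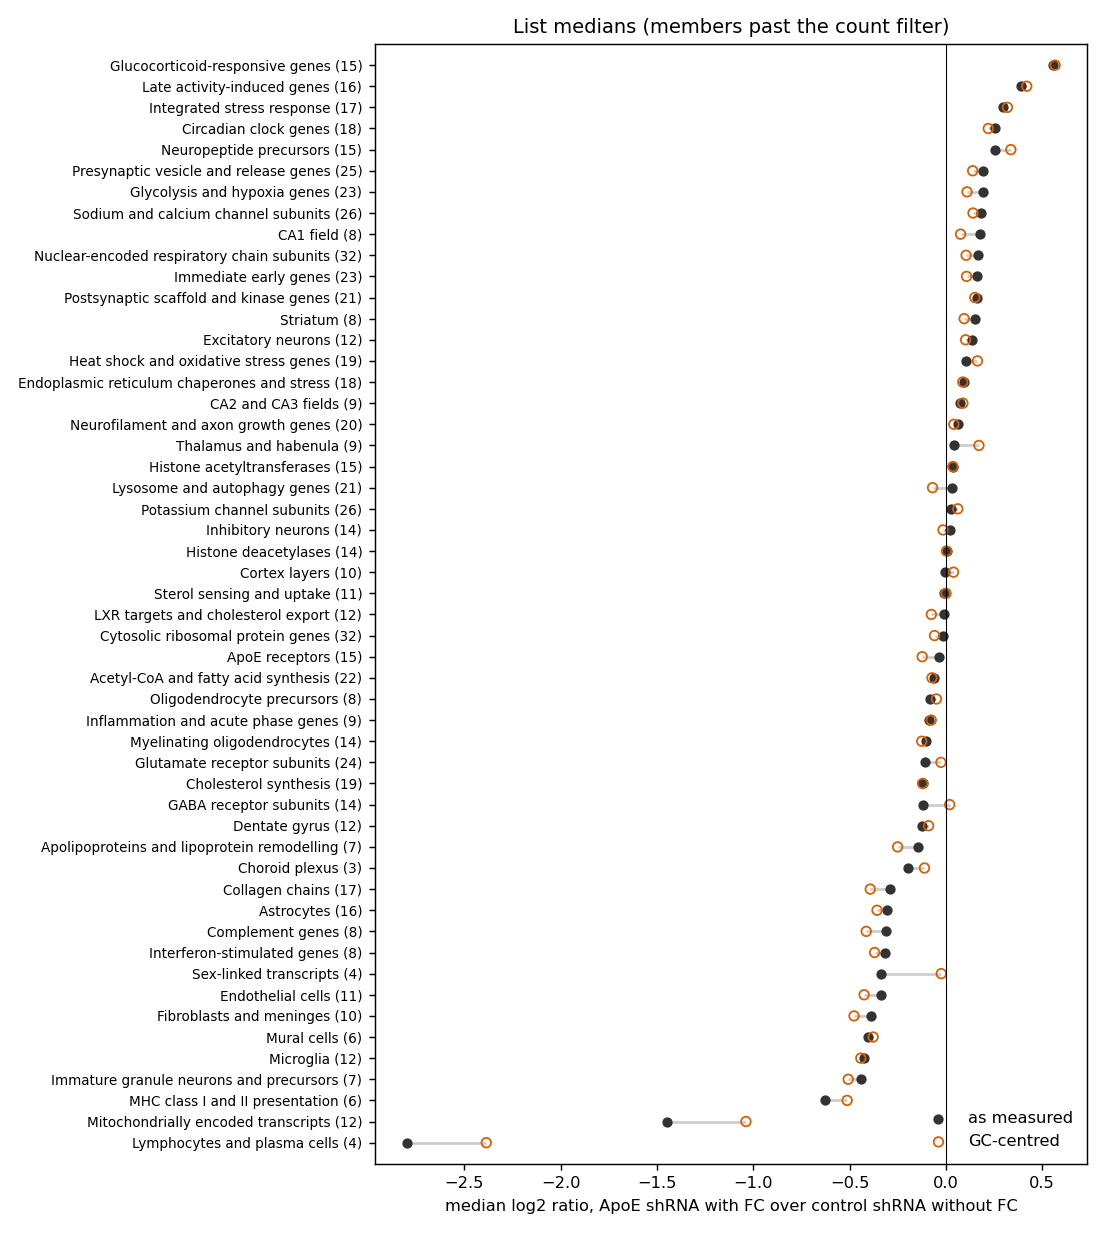
Median log2 ratio of ApoE shRNA with FC over control shRNA without FC (horizontal axis) for every list with at least 3 members past the filter, with the number of those members in brackets. Filled points are as measured and open points are GC-centred. The glucocorticoid list has the highest median, 0.55, and the mitochondrial and lymphocyte lists the lowest, -1.45 and -2.80. In the lymphocyte list, 3 of the 4 members passed the filter only through the control without FC.

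Of the 4 Y-linked genes in the sex-linked list, 1 was lower, Uty, at -0.79 and -0.38 with GC-centring.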

How the data were processed

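The authors deposited a table of raw read counts per gene for the 3 hippocampus libraries, and further count tables for cultured neurons. Per the labels' protocols, total RNA was extracted with Trizol and 2 μg entered a NEBNext Ultra RNA library kit for Illumina. Per the submitters' processing notes, Bowtie2 2.2.3, HISAT2 2.1.0, HTSeq 0.6.0 and mm10 were used. The sources used here do not give their roles or the strand setting. The labels state a neuron culture protocol also for the hippocampus.

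Counts were divided by the library total (17787408 to 18897784) and compared as log2 CPM ratios with 0.5 counts added. Intervals are exact binomial at 95%. A gene symbol with several entries took the entry with the highest summed counts. Of 24652 identifiers 24597 matched the name table, and 24 symbols that had become dates were restored. GC content is that of the longest GENCODE M21 transcript (GRCm38). Alternatives used TMM factors (edgeR 4.0.16) and size factors (DESeq2 1.42.0), with R 4.3.3, Python 3.11.15 and scipy 1.17.1. The code was tested on simulated data. No edgeR or DESeq2 test was run with 1 library a group, and neuron libraries served only as a description of spread.

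The text names Apoe, the 12 highest and 12 lowest ratios without predicted genes and immunoglobulin segments, and up to 4 called members of each of 56 lists (2 where none was called). The members, lists and thresholds were chosen with earlier results of these data known. Some genes that the rule names are not reported here.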

Additional observations from a re-analysis of the deposited data

How the results depend on the processing

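The median of the GABA receptor list, -0.12, became 0.02 with GC-centring. Apoe, -0.29 on the log2 scale, was -0.26 with TMM factors, -0.25 with size factors, -0.33 with totals without mitochondrial genes and the 20 highest genes, and -0.39 with GC-centring, which was added after the data were seen. The 137 higher genes became 233 at 50 counts or more, 53 at 500 counts or more, 2895 with no filter, 30 at 2-fold and 48 where the whole interval passed 1.5-fold. The 730 lower genes became 1059 at 50 counts or more, 252 at 500 counts or more, 5174 with no filter, 174 at 2-fold, 287 with the whole interval and 444 with GC-centring. TMM factors, size factors and the other totals gave 164, 171 and 117 higher genes and 630, 600 and 833 lower. They moved the median of all genes by at most 0.04, and of 120 called genes in the lists and among those named they ended 5, 6 and 5 calls. GC-centring moved 40 of 136 named genes and 6 of 55 list medians by more than their interval or spread. No paired analysis was possible because each group holds 1 library, and no library could be left out. Depth limits genes under 100 counts, where the interval of a ratio often spans 1.5-fold.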
